A study of Mus musculus with 15 samples.

Results

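The 7 genes described here are the clustered homeobox genes Hoxa3, Hoxa5, Hoxa7, Hoxa9, Hoxa10 and Hoxb4 and the TALE homeobox gene Meis1. They were measured in sorted mouse myeloid and dendritic cell progenitors, in bone marrow cultures and in cultured monocytes. Every probe set that the array annotation assigns to one of these symbols alone was taken, which gave 16 probe sets for 7 of the 18193 annotated genes, out of 45037 probe sets in all. Hoxa3 had 4 of them, Meis1 had 3, Hoxa5, Hoxa9, Hoxa10 and Hoxb4 had 2 each, and Hoxa7 had 1. A member of the Pbx family was not among the 7, and the Pbx genes are described below with the other cofactors.

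Hox genes lie in chromosomal clusters and encode transcription factors that pattern the embryo and are used again in blood formation. In mouse bone marrow the 5′ Hoxa genes, Hoxa9 above all, are active in stem and early progenitor cells and are switched off as cells mature. HOX proteins bind DNA together with TALE partners of the PBX and MEIS families, and HOXA9 with MEIS1 is a well known driver pair in acute myeloid leukaemia. MLL complexes maintain Hox transcription, and Polycomb complexes repress it.

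The study profiled cells of C57Bl/6 mice on 15 one-colour arrays, all labelled wild type or carrying no genotype label, and the progenitors came from animals at steady state. The 4 bone marrow populations, with 2 arrays each, were common myeloid progenitors (CMP, sorted CD117 high, CD135+, CD16/32-, CD11c-), granulocyte-macrophage progenitors (GMP, CD117 high, CD16/32+, CD135-), common dendritic cell progenitors (CDP, CD117 intermediate, CD135+) and the direct precursors of conventional dendritic cells (pre-cDC, CD117 low, CD135+, CD11c+). A further array was of pre-cDC labelled Spl. Whole bone marrow kept for 7 days with 20 ng/ml of a colony-stimulating factor gave 3 single arrays: adherent cells grown in GM-CSF, non-adherent CD11c+ cells grown in GM-CSF, and adherent cells grown in M-CSF. Bone marrow monocytes, enriched by negative selection that removed CD117+ and CD11c+ cells among others, gave 1 array each at 0, 24 and 48 hours with 20 ng/ml of GM-CSF. The labels state no ages and do not say whether the 2 arrays of a group came from different mice. The p-values below therefore reflect the spread among these arrays alone, which may be technical.

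The deposited values are linear intensities and fall on 4 scales, with array medians of 15.95 to 17.44 for the 8 bone marrow progenitor arrays, 24.09 to 25.66 for the cultures, 77.73 to 80.53 for the monocytes and 74.17 for the Spl array. Intensities were therefore compared within the progenitors, within the cultures and within the monocytes, and the percentile of a probe set within its own array was used across them. Elane, of neutrophil granules, read 3594 and 3712 in GMP and no more than 132 in the other bone marrow groups. Zbtb46, a transcription factor of classical dendritic cells, read 383 and 422 in pre-cDC and no more than 34.1 in the others. Other markers separated the groups less: Mpo read 8478 and 8764 in GMP but 5397 and 5071 in CMP. Flt3 read 1408 and 1623 in CDP and 1322 and 1434 in pre-cDC. No marker list was named for CMP or CDP. The Spl array stood apart. Kit, which encodes CD117, read 1105 on it, where the array median was 74.17. On the bone marrow pre-cDC arrays Kit read 36.3 and 36.8, with medians of 16.72 and 17.44, so part of that gap is scale. The Spl array is given no sort label of its own. It entered no test.

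Markers of other cells moved with the groups. The summed intensity of the stem and early progenitor list (8 of its 10 genes measured) was 3594 to 3902 in CMP, 2192 to 2459 in GMP, 1860 to 1981 in CDP and 120 to 133 in pre-cDC. Most of it was Cd34 and Kit, and Kit encodes CD117, which the sorts selected on. Cd34 was higher in CDP (1551 and 1456) than in GMP (1163 and 1205), and Kit lower (368 and 335 against 905 and 1085). The erythroid list (7 of 9 measured) summed to 4470 to 6271 in CMP, 2743 to 5071 in GMP, 150 to 219 in CDP and 63 to 76 in pre-cDC. Within the CMP pair, array 1 was the higher for the erythroid genes Klf1 (403 against 186) and Ermap (908 against 414). Array 2 was the higher for the stem cell genes Hlf (112 against 239) and Mecom (31.3 against 54.3). The stem and early progenitor list did not move as a whole, since Gata2 (145 against 134) and Kit (1229 against 1209.6) were higher on array 1. Procr was nearly level (16.5 against 17.2). The granulocyte-macrophage list summed to 31886 to 32416 in GMP, 10753 to 11403 in CMP, 8749 to 10382 in CDP and 186 to 239 in pre-cDC. The neutrophil list summed to 2160 to 2435 in GMP and at most 269 elsewhere. The dendritic cell list summed to 15640 to 16783 in pre-cDC, 3217 to 3484 in CDP, 1372 to 1557 in CMP and 100 to 102 in GMP. Of the other lists, macrophage and monocyte genes summed to 8315 to 8349 in pre-cDC and at most 4642 elsewhere, and mast cell and basophil genes to 412 to 523 in GMP and at most 196 elsewhere. Megakaryocyte genes stayed at or below 142, B cell genes at or below 360 and T cell genes at or below 49 on all 8 arrays. The erythroid globin gene Hba-a1 was at the lowest value, 1.0, on 7 of the 8 arrays. The part of these cells in the homeobox differences below was not tested, and in sorted bulk samples fewer cells that transcribe a gene and less RNA per cell cannot be told apart.

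Hoxa7, Hoxa9 and Hoxa10 are neighbours in the Hoxa cluster on chromosome 6, and the 250 bases before the annotated start of each are shown because these 3 adjacent genes were all lower in GMP than in CMP while Hoxa7 alone of them was not called lower in CDP. The sequences are from RefSeq on GRCm38.p6, read 5′ to 3′ on the minus strand, with CG dinucleotides in capitals. The Hoxa7 window is chr6:52218574-52218823, the Hoxa9 window chr6:52227371-52227620, which overlaps the gene model Gm52902, and the Hoxa10 window chr6:52240855-52241104.
Hoxa7: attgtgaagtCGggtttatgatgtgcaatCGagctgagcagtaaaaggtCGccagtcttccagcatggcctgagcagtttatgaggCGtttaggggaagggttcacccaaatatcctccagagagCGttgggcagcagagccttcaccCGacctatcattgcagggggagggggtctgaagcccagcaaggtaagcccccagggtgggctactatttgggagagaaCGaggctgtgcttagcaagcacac
Hoxa9: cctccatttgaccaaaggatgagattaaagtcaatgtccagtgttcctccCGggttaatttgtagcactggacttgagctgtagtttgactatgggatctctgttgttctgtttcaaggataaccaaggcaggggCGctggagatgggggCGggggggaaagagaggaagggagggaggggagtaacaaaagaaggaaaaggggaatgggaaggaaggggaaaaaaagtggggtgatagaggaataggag
Hoxa10: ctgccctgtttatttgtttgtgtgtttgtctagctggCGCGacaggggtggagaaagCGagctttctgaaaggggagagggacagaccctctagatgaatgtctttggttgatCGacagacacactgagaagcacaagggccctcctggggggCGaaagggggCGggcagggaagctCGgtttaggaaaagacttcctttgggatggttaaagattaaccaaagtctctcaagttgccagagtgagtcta

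The Hoxa9 window held 3 CG dinucleotides, and 29.0% of all 32851 promoter windows of this length held fewer; the Hoxa7 and Hoxa10 windows held 7 each, against a median of 6. Other windows held more, with 28 in Hoxa5 (92.4% of windows held fewer), 18 in Hoxa3, 20 in a second Hoxa10 window and, on chromosome 11, 14 in Hoxb4 and 13 in Meis1. Searched on both strands, the MEIS core TGACAG was present in 15.9% of all windows and in 1 of the members' windows, that of Hoxa3, 13 bases before the start. The composite HOX-PBX core TGATTNAT was present in 2.82% of windows and in none of the members'. TATAAA was present in 12.4% of windows and in the second Hoxa10 window, which lies inside that gene. None of these 3 motifs was in the printed windows.

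Hoxa9, which encodes the HOX factor most tied to stem and progenitor self-renewal, had the widest range of the 7 genes. Its probe set 1455626_at read 1000.2 and 1259 on the CMP arrays, 638 and 789 on the CDP arrays, 337 and 301 on the GMP arrays, and 60.0 and 45.1 on the bone marrow pre-cDC arrays. The 4 groups did not overlap and were ordered CMP, CDP, GMP, pre-cDC. The mean was 1129 ± 183 (SD, n = 2) in CMP and 52.5 ± 10.5 (SD, n = 2) in pre-cDC, so the pre-cDC mean was 4.65% of the CMP mean, the GMP mean 28.3% and the CDP mean 63.2%. The second Hoxa9 probe set, 1421579_at, had the same order without overlap: 196 and 254 in CMP, 117 and 155 in CDP, 59.7 and 61.5 in GMP, and 13.8 and 16.1 in pre-cDC, below the median of those arrays.

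Differences were tested on log2(intensity + 32) with limma across all 45037 probe sets, and a probe set was called when its Benjamini-Hochberg adjusted p was below 0.05. The added 32 shrinks differences between dim values, so the log2 differences and folds are on that scale. For Hoxa9 1455626_at, GMP was below CMP by a log2 difference of -1.72 (SE 0.147, limma adjusted p = 8.73e-06), a 3.29-fold difference. CDP was above GMP by 1.08 (adjusted p = 0.00018), and pre-cDC was below CDP by a difference of -3.14 (adjusted p = 1.68e-08), 8.81-fold, and below CMP by -3.78 (adjusted p = 1.43e-09), 13.7-fold. The smallest step, CDP against CMP, was -0.64 (95% interval -0.96 to -0.32, limma adjusted p = 0.0167), and -0.61 for 1421579_at (adjusted p = 0.0146). Both probe sets lost that call without CDP replicate 1 (differences of -0.491 for 1455626_at and -0.448 for 1421579_at) or without CMP replicate 2 (-0.477 and -0.45).

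Meis1, the TALE factor that HOXA9 works with, followed the same order by its brightest probe set alone. Probe set 1450992_a_at read 224 and 285 in CMP, 141 and 126 in CDP, 47.7 and 47.0 in GMP, and 34.0 and 30.6 in pre-cDC, with no overlap between groups. GMP was below CMP by -1.84 (SE 0.122, limma adjusted p = 9.28e-07), 3.59-fold, and CDP below CMP by -0.78 (adjusted p = 0.0015), a call that held with each array left out in turn. Pre-cDC was below CDP by -1.37 (adjusted p = 3.9e-06). The last step, pre-cDC against GMP, was -0.30 (interval -0.57 to -0.04, limma adjusted p = 0.0691) and missed the threshold, which it passed after quantile normalization (adjusted p = 0.0123) and median scaling (0.0326).

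The other Meis1 probe sets were dimmer. Probe set 1443260_at read 61.5 and 103 in CMP, 42.3 and 66.9 in CDP, 15.6 and 13.7 in GMP, and 18.7 and 33.9 in pre-cDC, so GMP and not pre-cDC was the lowest. GMP was below CMP by -1.27 (limma adjusted p = 0.000496), while the CMP and CDP values overlapped. For this probe set neither CDP against CMP (-0.39, limma adjusted p = 0.241) nor pre-cDC against GMP (0.31, adjusted p = 0.209) was called. Its fall from CDP to pre-cDC, -0.57 (limma adjusted p = 0.0359), lost the call without CDP replicate 2 (0.257), without pre-cDC replicate 1 (0.254) and without GMP replicate 1 (0.0578) or 2 (0.0582). Probe set 1459423_at stayed at 8.1 to 18.7 on all 8 arrays, near the array median, and was called in no comparison.

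**Figure D1:**
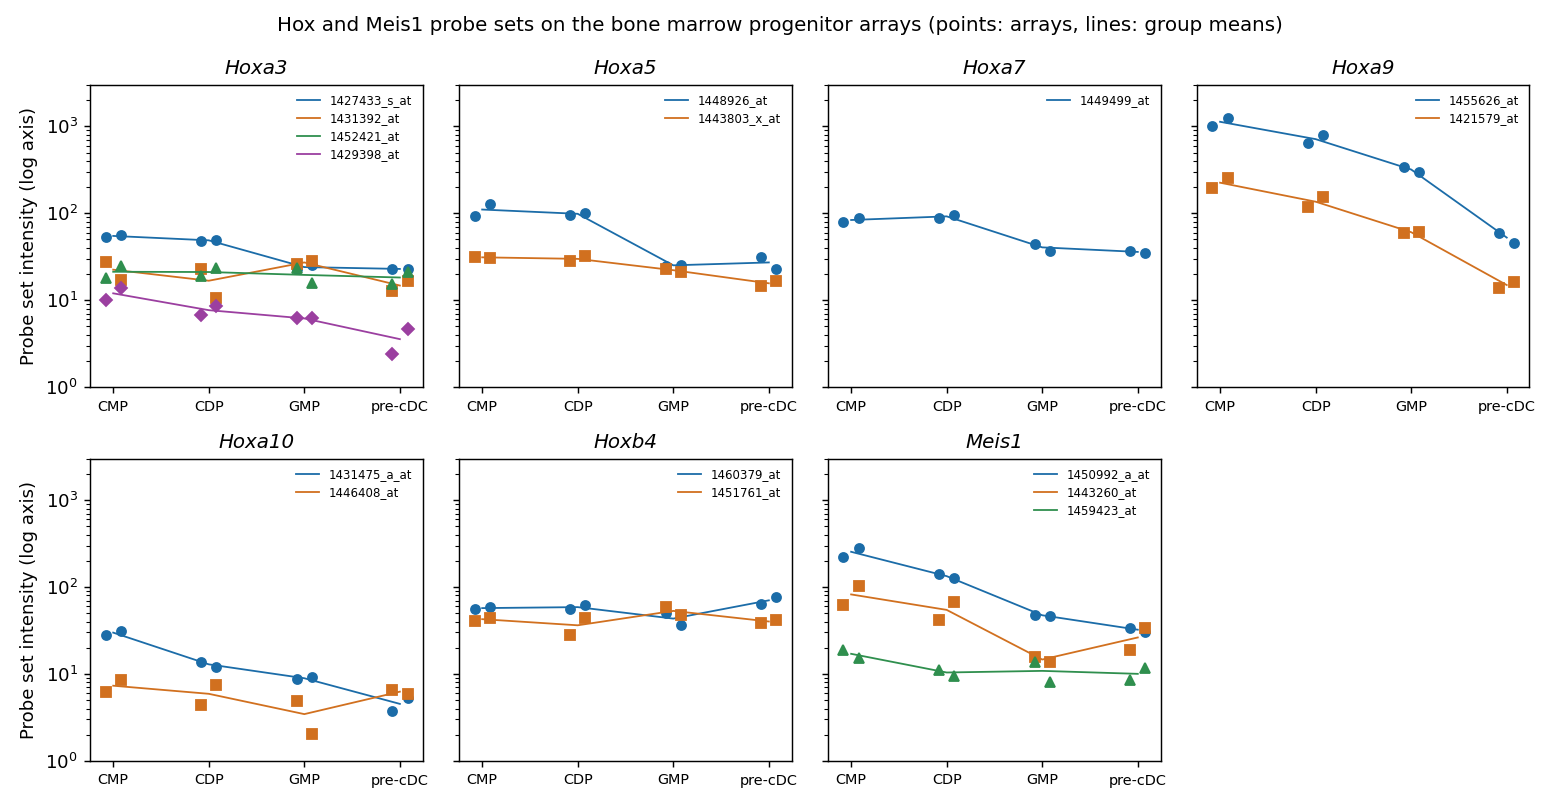
Intensity of each of the 16 probe sets (log axis) on the 8 bone marrow progenitor arrays, with 1 panel per gene; points are single arrays, lines join group means, and colours mark probe sets. Both Hoxa9 probe sets and the brightest Meis1 probe set have group means in the order CMP, CDP, GMP, pre-cDC, while Hoxa5, Hoxa7 and the brightest Hoxa3 probe set stay level from CMP to CDP and are lower in both GMP and pre-cDC.

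By their brightest probe sets, Hoxa5, Hoxa7 and Hoxa3, factors of the middle and 3′ part of the cluster, showed a plateau and a drop. Both Hoxa9 probe sets and the brightest Meis1 probe set showed a gradient, with the last Meis1 step not called. Hoxa5 1448926_at read 94.0 and 127 in CMP, 96.3 and 101 in CDP, 24.7 and 25.7 in GMP, and 31.4 and 23.0 in pre-cDC. CMP and CDP values overlapped, GMP and pre-cDC values overlapped, and the pairs of groups were far apart. GMP was below CMP by -1.31 (SE 0.124, limma adjusted p = 2.04e-05), 2.48-fold, and pre-cDC below CDP by -1.15 (adjusted p = 1.97e-05). CDP minus CMP was -0.12 with an interval of -0.39 to 0.15, and pre-cDC minus GMP was 0.05 with an interval of -0.22 to 0.32, so neither difference was distinguishable from 0 and differences outside those intervals were not seen.

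Hoxa7, 1 probe set, read 79.9 and 87.6 in CMP, 87.7 and 96.7 in CDP, 44.5 and 36.6 in GMP, and 36.9 and 35.0 in pre-cDC. GMP was below CMP by -0.68 (SE 0.105, limma adjusted p = 0.000936) and pre-cDC below CDP by -0.87 (adjusted p = 4.59e-05). The difference of CDP from CMP was 0.10, with an interval of -0.13 to 0.33. For Hoxa3 the brightest probe set, 1427433_s_at, read 53.5 and 56.3 in CMP, 48.2 and 49.5 in CDP, 22.9 and 25.2 in GMP, and 22.7 and 23.1 in pre-cDC. Its GMP minus CMP difference was -0.63 (limma adjusted p = 0.000488) and its pre-cDC minus CDP difference -0.56 (adjusted p = 0.000458), and CDP minus CMP was -0.10 with an interval of -0.30 to 0.09. All 3 genes thus separated CMP and CDP from GMP and pre-cDC.

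Other probe sets of these genes did not all follow. Hoxa5 1443803_x_at was 30.5 to 31.8 in CMP, 27.9 to 31.9 in CDP, 21.3 to 23.0 in GMP and 14.7 to 16.6 in pre-cDC, and was called lower in pre-cDC than in CDP (-0.38, limma adjusted p = 0.00535) but not in GMP against CMP (-0.22, adjusted p = 0.121). Hoxa3 1452421_at shares its target accession with 1427433_s_at, so these are not independent, yet it read 15.5 to 24.6 on all 8 arrays and was called nowhere. Hoxa3 1429398_at was below the array median on all 8 arrays (2.41 to 13.9), yet was called lower in pre-cDC than in CMP (-0.31, limma adjusted p = 0.00341). Hoxa3 1431392_at had 1 call, lower in pre-cDC than in GMP (-0.34, limma adjusted p = 0.0476), which was lost on leaving out any of the 4 arrays compared (adjusted p from 0.0794 to 0.215).

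Hoxa10, next to Hoxa9 and likewise active in early progenitors, was dim, and detection calls were not used here. Probe set 1431475_a_at read 28.4 and 31.4 in CMP, 13.8 and 12 in CDP, 8.75 and 9.11 in GMP, and 3.76 and 5.29 in pre-cDC, so it was above the array median in CMP alone. CDP was below CMP by -0.46 (SE 0.0729, limma adjusted p = 0.00157) and GMP below CMP by -0.60 (adjusted p = 0.000157), and CDP and GMP differed by 0.13 with an interval of -0.03 to 0.29. The fall from CDP to pre-cDC, -0.30 (limma adjusted p = 0.00899), lost its call without CDP replicate 1 (0.0504) or without pre-cDC replicate 1 (0.058). The other Hoxa10 probe set, 1446408_at, read 2.04 to 8.53 on these arrays, under every array median.

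Hoxb4, from the Hoxb cluster and known for expanding blood stem cells when forced on, had no lower call in the 6 comparisons under the settings used throughout, but 1 of its probe sets gained some under others. Its probe sets share a target accession. Probe set 1460379_at read 56.3 and 58.2 in CMP, 55.7 and 61.8 in CDP, 50 and 36.7 in GMP, and 63.9 and 76.7 in pre-cDC, and 1451761_at read 28.1 to 58.4 on the 8 arrays. Of the 12 differences of this gene, 1 was called: 1460379_at was higher in pre-cDC than in GMP by 0.44 (SE 0.115, limma adjusted p = 0.0079). That call was lost without GMP replicate 2 (0.117), without pre-cDC replicate 2 (0.0739) and after quantile normalization (0.0558), and the same contrast for 1451761_at was -0.24 (adjusted p = 0.155), in the other direction, and after quantile normalization it was called lower (adjusted p = 0.022). The difference of CDP from GMP for 1451761_at, -0.33 (limma adjusted p = 0.0738), was also called lower after quantile normalization (0.0125), after median scaling (0.0342), among brighter probe sets alone (0.0429) and without CDP replicate 2 (0.0155). Pre-cDC minus CMP was 0.19 (interval -0.06 to 0.44) for 1460379_at and -0.05 (interval -0.31 to 0.21) for 1451761_at.

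**Figure D2:**
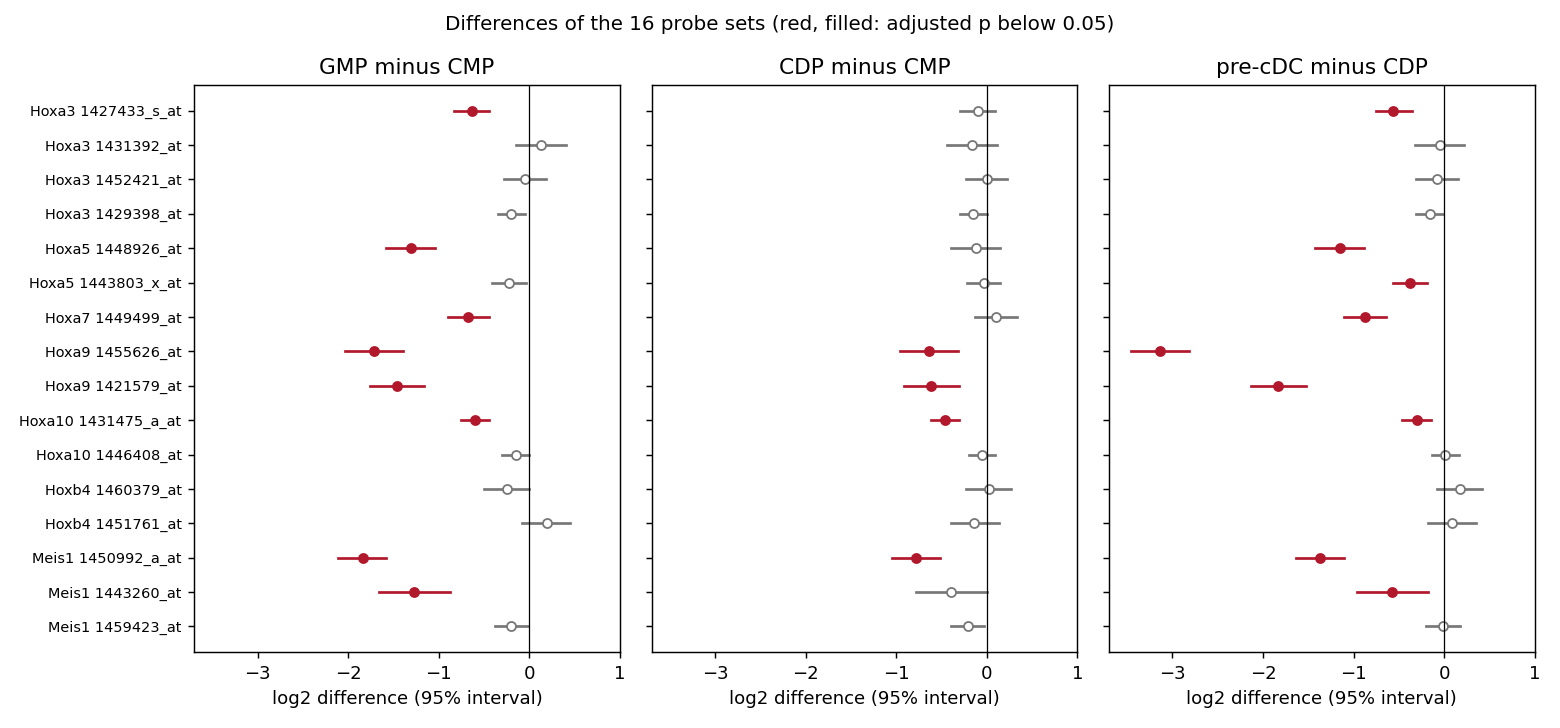
Log2 differences on log2(intensity + 32), with 95% intervals, for the 16 probe sets in 3 comparisons of bone marrow groups; red filled points passed an adjusted p of 0.05 in limma. In GMP minus CMP 8 probe sets are red and in pre-cDC minus CDP 9, all to the left of 0, and in CDP minus CMP 4, of Hoxa9, Hoxa10 and Meis1.

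Counted over probe sets, 8 of 16 were called lower in GMP than in CMP and 0 higher, where 7.69% of all probe sets were called lower and 4.73% higher. These 8 belonged to 6 of the 7 genes, all but Hoxb4. The median log2 difference of the 16 was -0.42, against -0.016 over all probe sets. In CDP against CMP, 4 were lower and 0 higher (background 3.72% lower and 5.24% higher), with a median of -0.14 against 0.0096; the 4 became 2 without CDP replicate 1 or without CMP replicate 2. In pre-cDC against CDP, 9 were lower and 0 higher (background 12.9% and 11.7%), with a median of -0.34 against 0.0021.

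CDP against GMP gave 7 probe sets higher and 0 lower, of 5 genes, where 15.3% of all probe sets were higher and 8.62% lower, with a median of 0.23 against 0.018. Pre-cDC against GMP gave 3 lower and 1 higher, where the background was 17.1% and 21.3%. After quantile normalization 6 were lower and 0 higher, and the 4 calls became 2 without GMP replicate 2 or without pre-cDC replicate 2. Pre-cDC against CMP gave 10 lower and 0 higher (background 16.6% and 17.5%), with a median of -0.53 against 0.0073. The 6 comparisons share groups of arrays, so they are not independent of each other. Scaling moved the balance over all probe sets: the share of calls that were higher was 38.0% in GMP against CMP but 49.9% after quantile normalization and 51.3% after median scaling, 58.5% in CDP against CMP but 47.0% after quantile normalization, and 63.9% in CDP against GMP but 49.1% after quantile normalization. All members called in these comparisons kept their direction under both scalings.

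Of the 16 probe sets, 14 had a highest group mean above the progenitor median of 16.8, as had 25763 of all 45037. The background shares above include the dimmer probe sets, and calls were commoner among the brighter ones. With those 25763 fitted alone, 6651 were called in GMP against CMP (2437 of them higher). In CDP against CMP 4957 were called (2905 higher), and in pre-cDC against CDP 11712 (5516 higher). Within each array, Hoxa9 1455626_at ranked at percentiles 96.0 and 97.1 in CMP, 93.3 and 94.7 in CDP, 89.6 and 88.5 in GMP and 70.7 and 66.7 in pre-cDC. Hoxb4 1460379_at stayed between percentiles 66.1 and 73.7 on the same 8 arrays. The number of member probe sets above the median on both arrays of a group was 12 in CMP, 11 in CDP, 10 in GMP and 8 in pre-cDC.

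For Hoxa9, Meis1 and Hoxa5, the 3 members whose brightest probe set spanned at least 2-fold between group means on that scale, the genes with the most similar profile were found by Pearson correlation over the 8 arrays among 3058 genes that also spanned 2-fold on intensity + 32. They are a description over 4 groups of arrays that share platform and scale. For Hoxa9 they were Camk1 (r = 0.996), a calmodulin-dependent kinase, Nipsnap1 (0.995) and Repin1 (0.995). For Meis1 they were Gimap1 (0.993), a GTPase of lymphoid cells, Hmga2 (0.989), a chromatin protein of fetal and self-renewing cells, and Tcf7l2 (0.989), a Wnt effector. Hmga2 had group means of 385 in CMP, 170.1 in CDP, 40.1 in GMP and 30.9 in pre-cDC. For Hoxa5 they were Slc35d3 (0.995), Rnf144a (0.989) and Dhrs3 (0.988), a retinaldehyde reductase. Slc35d3 had group means of 193 in CMP, 201 in CDP, 4.16 in GMP and 4.32 in pre-cDC, the plateau and drop of Hoxa5.

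The cofactors and regulators were described with 1 probe set per gene, the brightest on the progenitor arrays, and their calls read against 8.88% of genes lower and 6.21% higher in GMP against CMP, 5.64% and 6.53% in CDP against CMP, and 17.7% and 13.3% in pre-cDC against CDP. Of 9 other TALE genes, 3 were lower and 0 higher in GMP against CMP, with a median difference of -0.11 against -0.009 over all genes. Tgif2, a TALE repressor linked to TGF-beta signalling, fell from 402 ± 69.3 to 226 ± 14.8 (SD, n = 2; -0.74, limma adjusted p = 0.00533), and its relative Tgif1 from 282 ± 3.68 to 185 ± 16.2 (SD, n = 2; -0.54, adjusted p = 0.00678). Pbx4 fell from 42.5 to 26.2 (-0.36, limma adjusted p = 0.0271). Tgif2 lost its call without CMP replicate 1 (0.067) or GMP replicate 1 (0.065), Tgif1 without CMP replicate 2 (0.0608) or GMP replicate 2 (0.0916), and Pbx4 without any of the 4 arrays and after either scaling.

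In CDP against CMP 0 of the 9 TALE genes were called by limma, with a median of -0.03 against 0.002. In pre-cDC against CDP 3 were lower and 1 higher. Tgif2 fell from 319 ± 57.4 to 46.0 ± 7.02 (SD, n = 2; -2.16, limma adjusted p = 4.03e-07) and Tgif1 from 230.2 ± 14.3 to 57.4 ± 2.21 (SD, n = 2; -1.55, adjusted p = 6.34e-07). Pbx3, a partner that stabilises HOXA9 binding, rose from 56.5 ± 3.46 to 99.9 ± 14.8 (SD, n = 2; 0.57, limma adjusted p = 0.00275), so it was higher where Hoxa9 was lowest. Of 27 other Hox genes measured, out of 33, 5 had a group mean above the progenitor median. Hoxa2 was lower in GMP than in CMP (17.0 to 6.98), a call lost without any of those 4 arrays, and Hoxc8 (8.84 to 16.9) and Hoxc9 (8.07 to 14.9) were higher in pre-cDC than in CDP, near or below the median. Both lost the call without CDP replicate 1, and Hoxc9 also without CDP replicate 2, either GMP array or pre-cDC replicate 1.

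Among 18 genes of the MLL complexes and other Hox activators, 4 were lower and 1 higher in GMP against CMP, with a median of -0.09; after quantile normalization or median scaling 1 was lower and 1 higher. Psip1, which encodes LEDGF and tethers MLL to chromatin, fell from 622 ± 3.17 to 392 ± 4.53 (SD, n = 2; -0.63, limma adjusted p = 0.00179), and Aff1, an elongation factor subunit, rose from 430.5 to 669.6 (0.60, adjusted p = 0.00426). Kmt2a, which encodes MLL itself, went from 348 to 231 (-0.53, limma adjusted p = 0.0439) but lost the call without any CDP array, without CMP replicate 2 (0.364), without either GMP array and after either scaling. In CDP against CMP 1 was lower and 1 higher: Mllt3, the AF9 gene, fell from 117 ± 26.0 to 37.4 ± 2.66 (SD, n = 2; -1.09, limma adjusted p = 0.000193), and Brpf1 rose from 304 to 469.6 (0.58, adjusted p = 0.00761), lost without CDP replicate 2 (0.0595) or CMP replicate 1 (0.0971). In pre-cDC against CDP 4 were lower and 2 higher, with Psip1 (514 to 246), Mllt1, the ENL gene (94.8 to 41.2), and Ash2l, a core MLL subunit (349 to 202), the farthest down.

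Of 15 Polycomb genes measured, out of 16, 3 were lower and 0 higher in GMP against CMP, with a median of -0.21. Cbx2, the chromobox subunit of Polycomb repressive complex 1, fell from 251 ± 55.6 to 57.2 ± 9.76 (SD, n = 2; -1.65, SE 0.15, limma adjusted p = 1.44e-05). It read 304 ± 14.9 in CDP and 49.3 ± 10.5 in pre-cDC (SD, n = 2 each; pre-cDC minus CDP -2.05, limma adjusted p = 7.19e-07), high in CMP and CDP and low in GMP and pre-cDC like Hoxa5. Phc1 (116 to 62.0) and Asxl1 (406 to 269) were also lower in GMP, and both lost the call without CMP replicate 2 or GMP replicate 1 (adjusted p from 0.0615 to 0.0846).

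In CDP against CMP 2 Polycomb genes were higher and 0 lower: Jarid2 (228 to 343), lost without CDP replicate 2 or CMP replicate 2, and Ezh2, the histone H3 methyltransferase (1124 to 1421), lost without CDP replicate 2, either CMP array or either GMP array and after quantile normalization (0.0835). In pre-cDC against CDP 5 were lower and 2 higher, but of the 5 Phc1 lost the call without any of the 4 arrays compared and Ezh2 without CDP replicate 2, either pre-cDC array or either GMP array. Bmi1, a complex 1 subunit needed for stem cell self-renewal, fell from 412 ± 18.6 to 104 ± 7.59 (SD, n = 2; -1.71, limma adjusted p = 2.08e-07), and Jarid2 rose from 343 ± 37.2 to 636 ± 19.7 (SD, n = 2; 0.84, adjusted p = 0.000316).

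**Figure D3:**
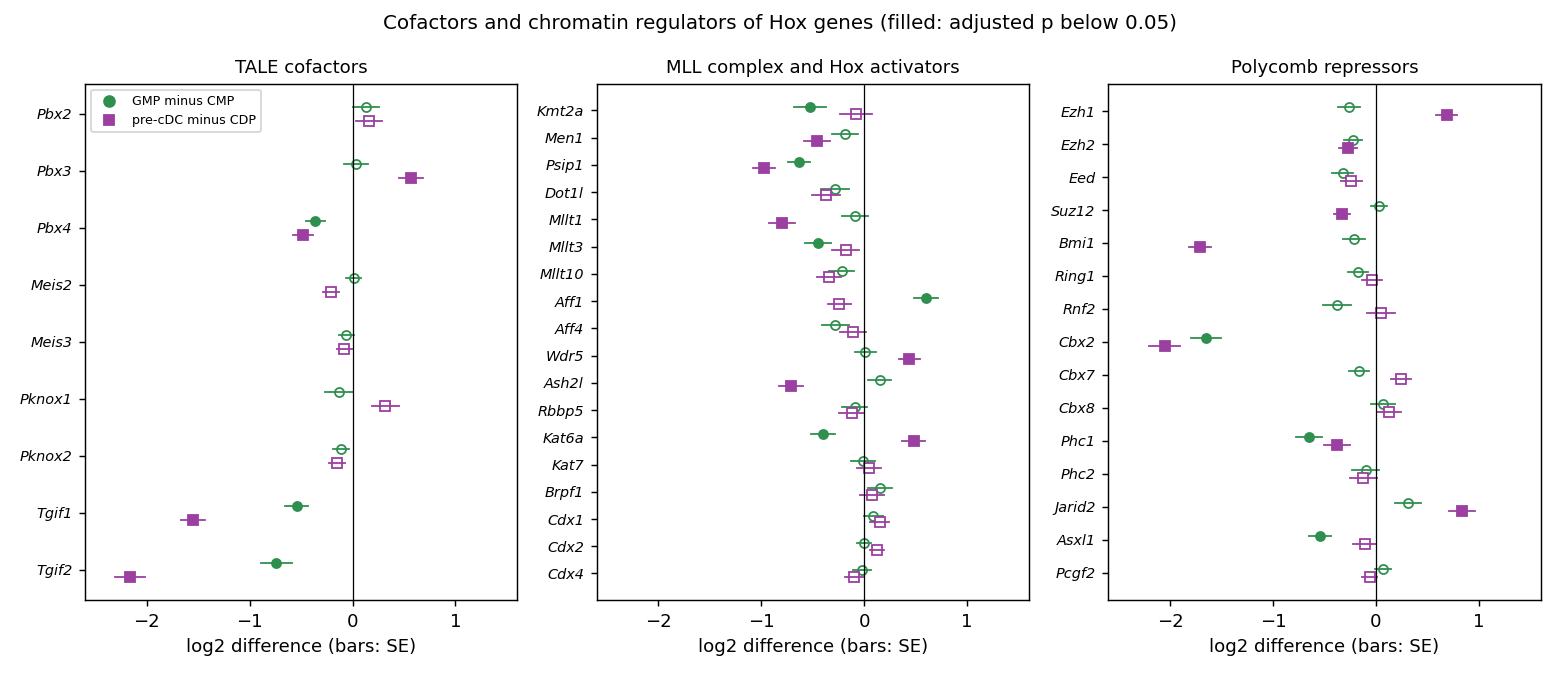
Log2 differences (points) with standard errors (bars) for TALE cofactors, MLL complex and Hox activator genes and Polycomb genes, GMP minus CMP (green circles) and pre-cDC minus CDP (purple squares); filled symbols passed an adjusted p of 0.05 in limma. Cbx2 and Tgif2 lie left of 0 in both comparisons, and Pbx3 and Jarid2 lie right of 0 in pre-cDC minus CDP.

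The last list held 18 genes that have been linked to HOXA9 and MEIS1, and 12 were lower and 1 higher in GMP against CMP, with a median of -0.80 against -0.009 over all genes. Flt3 and Kit, 2 of the 18, encode CD135 and CD117, which the sorts selected on; Kit, Cd34 and Hlf are also on the stem and early progenitor marker list and Flt3 on the dendritic cell list. The 1 higher, Myb, lost the call without either CMP array, without GMP replicate 2 and after quantile normalization. Mef2c, a transcription factor of lymphoid and dendritic progenitors, fell from 1294 ± 54.0 to 399 ± 40.4 (SD, n = 2; -1.62, limma adjusted p = 4.59e-06), and the chemokine gene Ccl3 from 704 ± 312 to 163 ± 12.2 (SD, n = 2; -1.85, adjusted p = 0.0012).

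In CDP against CMP 9 of the 18 were lower and 3 higher, with a median of -0.55. Without CMP replicate 1 these became 8 and 1, without CMP replicate 2 they became 6 and 3, and without CDP replicate 2 they became 7 and 2. Hlf, a transcription factor of stem cells, fell from 176 ± 89.8 to 16.8 ± 0.0424 (SD, n = 2; -2.02, limma adjusted p = 7.18e-05), and Id2, an inhibitor of bHLH factors needed for dendritic cells, rose from 44.2 ± 5.58 to 465 ± 61.8 (SD, n = 2; 2.70, adjusted p = 1.51e-07). In pre-cDC against CDP 13 were lower and 1 higher, with a median of -1.34. Cd34, on the stem and early progenitor list, fell from 1503 ± 67.5 (SD, n = 2) to 52.9 (-4.19, limma adjusted p = 7.38e-10), Sox4 from 3559 ± 188 to 527 ± 12.7 (SD, n = 2; -2.68, adjusted p = 1.66e-09) and the cell cycle kinase gene Cdk6 from 3469 ± 351 to 519 ± 6.25 (SD, n = 2; -2.66, adjusted p = 1.22e-09).

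The single arrays have no replicate check, and a difference was counted there when it was at least 4-fold on intensity + 32 and the higher value was above its array's median. On the Spl pre-cDC array Hoxa9 1455626_at read 67.5, under that array's median, at percentile 46.8, against 70.7 and 66.7 in bone marrow pre-cDC. Meis1 1450992_a_at was at percentile 52.0 there, against 63.0 and 61.0. Hoxa5 1448926_at, at percentile 70.2 against 61.7 and 56.0, lay the other way. So did the second Hoxa9 probe set, 1421579_at, at 49.8 against 45.4 and 48.2. With 1 array whose Kit value sets it apart, these ranks were not tested.

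In the cultures 0 of the 16 probe sets differed by 4-fold between adherent GM-CSF and adherent M-CSF cells (0.919% of all probe sets did), between CD11c+ and adherent GM-CSF cells (0.411%) or between CD11c+ GM-CSF and adherent M-CSF cells (1.74%). Hoxa9 1455626_at read 18.6 in adherent GM-CSF cells, 9.33 in CD11c+ cells and 15.3 in M-CSF cells, all under the array medians. Hoxa7 read 1.95, 18.9 and 1.0 in the same order, and Meis1 1450992_a_at read 17.2, 36.2 and 47.0. Of the 16, 3 were above the median in adherent GM-CSF cells and 4 in each of the other cultures, among them Hoxb4 1451761_at, at 68.5, 109.7 and 66.5.

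**Figure D4:**
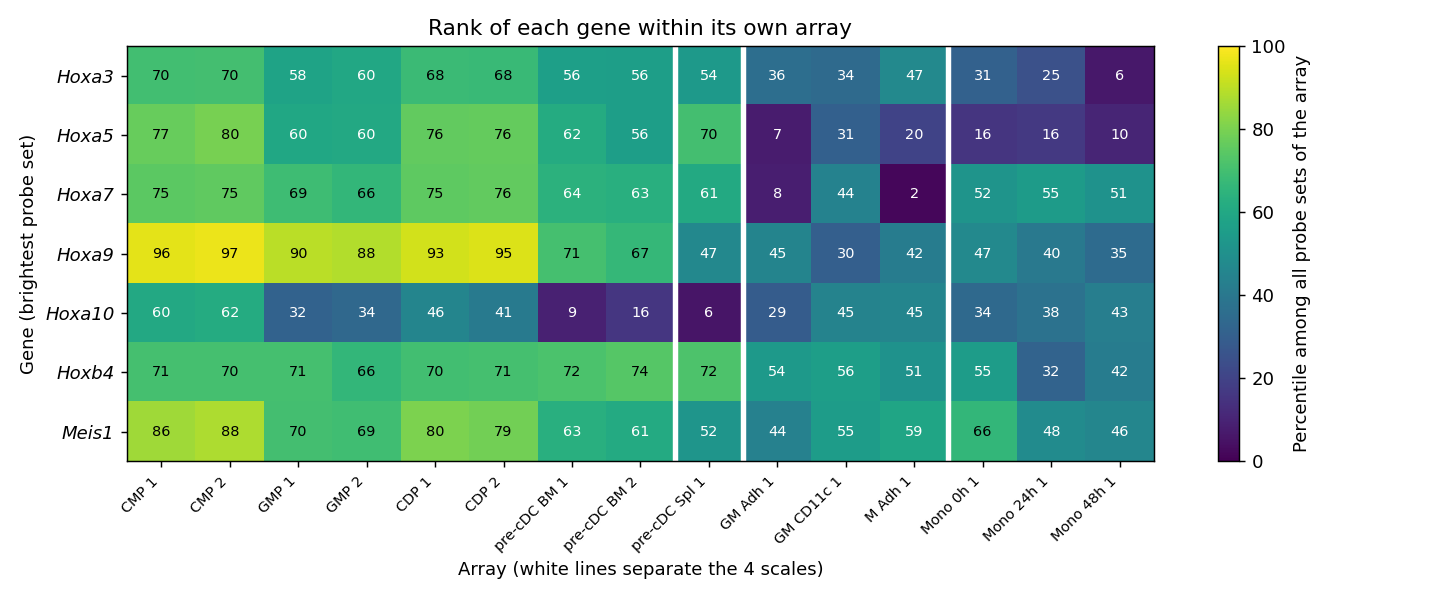
Percentile of 1 probe set per gene among all probe sets of the same array (colour and printed number, 0 to 100), for the 15 arrays. The probe set shown is the brightest on the bone marrow progenitor arrays, which is not always the brightest elsewhere. White lines separate the 4 intensity scales. Read along a row, the Hoxa9 probe set shown goes from 96 and 97 in CMP to 71 and 67 in bone marrow pre-cDC. It is at or below 47 on the single arrays. The Hoxb4 probe set shown is at 66 to 74 on the 9 progenitor and pre-cDC arrays and at or below 56 in cultures and monocytes. The other Hoxb4 probe set, not shown, is at 62.5 to 67.8 in the cultures and 28.4 to 38.7 in the monocytes. The other Hoxa9 probe set, not shown, is at 49.8 on the Spl array and 50.4 to 53.9 in the monocytes. In the cultures it is at or below 32.8.

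In the monocytes 0 of the 16 probe sets differed by 4-fold from 0 to 24 hours (3.1% of all probe sets did), from 24 to 48 hours (0.469%) or from 0 to 48 hours (3.41%). At a 2-fold limit, Meis1 1450992_a_at was counted: it read 281 at 0 hours, 69.8 at 24 hours and 63.0 at 48 hours, from above to below the array median, a log2 difference of -1.62 at 24 hours and -1.72 at 48 hours. Hoxb4 1460379_at read 116, 30.4 and 50.6, which was -1.25 at 24 hours. That made 2 of 16 probe sets at least 2-fold lower at 24 hours and 1 at 48 hours, where 7.05% and 5.9% of all probe sets were.

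The other probe sets of both genes were below the array medians at every time. Meis1 1443260_at read 54.6, 25.4 and 45.3, Meis1 1459423_at 49.8, 60.9 and 27.5, and Hoxb4 1451761_at 43.1, 26.2 and 31.7. Granule and progenitor genes were also lower at the later times: Mpo read 4935, 170.2 and 277, Elane 1791, 289.8 and 56.9, and Flt3 297, 32.9 and 70.5, while Kit (7.48, 141 and 139.6) and Cd34 (186, 426 and 914) were not. The summed granulocyte-macrophage progenitor list went from 31037 to 13229 and 11952, most of the later sums being the Fc receptor gene Fcgr3 (11953 and 11062). The part of such cells in the Meis1 and Hoxb4 values was not tested.

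Some probe sets of a gene gave opposite pictures in monocytes. Hoxa9 1455626_at read 66.9, 46.6 and 35.3 at 0, 24 and 48 hours, below the array median throughout, while Hoxa9 1421579_at read 93.7, 99.1 and 82.2, just above it, at percentiles 52.3, 53.9 and 50.4. Hoxa5 1443803_x_at read 374, 454 and 334, far above the median, where Hoxa5 1448926_at, the probe set called lower in GMP, read 13.1, 14.1 and 8.45. Hoxa3 1431392_at read 223, 215 and 217, where the 3 other Hoxa3 probe sets read 1.62 to 29.6. The array annotation gives no target accession for 1443803_x_at, and its suffix marks probes that can match other transcripts. The differing readings of Hoxa9, Hoxa5 and Hoxa3 in monocytes were not resolved here.

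**Figure D5:**
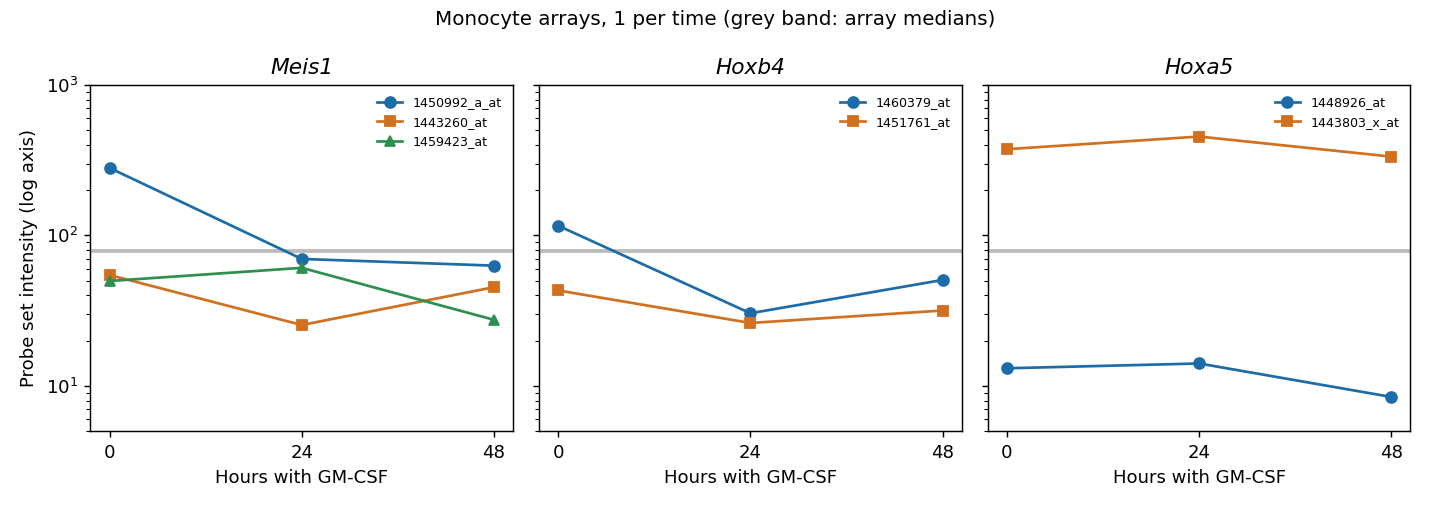
Intensity (log axis) of each Meis1, Hoxb4 and Hoxa5 probe set on the monocyte arrays at 0, 24 and 48 hours with GM-CSF, 1 array per time; the grey band spans the 3 array medians. Meis1 1450992_a_at reads 281, 69.8 and 63.0 in time order, and the 2 Hoxa5 probe sets lie on opposite sides of the band.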

How the data were processed

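RNA of 15 mouse samples was hybridised to one-colour 3′ arrays after biotin labelling, per the labels' protocols. The deposited table holds linear intensity values, 1 per probe set and array; the background correction, probe summary and scaling that the authors applied are not given in the sources used here. Precision is limited by 2 arrays per tested group.

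Probe sets were named from the platform annotation: 34945 had 1 gene, 932 several and 9160 none. Groups follow the labels. The 8 bone marrow progenitor arrays were fitted in 1 model with 4 group means in limma 3.58.1 (R 4.3.3) on log2(intensity + 32), with an intensity trend, 4 residual and 12.2 moderated degrees of freedom, and two-sided Benjamini-Hochberg adjustment over all 45037 probe sets. On simulated data, normal noise around a mean shared by all groups, the fit recovered 80% of changes of log2 1 and 98% of log2 2, with 4 false calls. Changes were planted only in probe sets above the median, so these rates do not cover dimmer members. The Spl array entered no test. Tables and figures used Python 3.11.15, pandas 2.3.3 and matplotlib 3.10.9. Promoter windows are RefSeq's, on GRCm38.p6.

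The 7 members, the 5 gene lists and the 10 marker lists were chosen with earlier results of these data known. Genes were named by a rule: all members, and the 3 genes most correlated with each member spanning 2-fold. It added up to 3 called genes per list with the largest difference in each of 3 comparisons. Flt3 and Kit, whose products the sorts selected on, met this rule but are given without their log2 differences. Marker genes and other list genes, among them Myb, Myc and Dot1l, were named outside it. Alternatives were constants of 8 and 64, quantile normalization, median scaling, a filter on dim probe sets, 1 probe set per gene, no intensity trend, a replicate block, each array left out, and a 2-fold limit for single arrays.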

Additional observations from a re-analysis of the deposited data

How the results depend on the processing

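Of the 42 member calls over the 6 comparisons, 6 were lost when some 1 array was left out, 3 under another setting, and 0 reversed in any setting run. With each array left out in turn, the count of member probe sets called ranged from 2 to 4 in CDP against CMP (2 without CDP replicate 1 or CMP replicate 2) and from 2 to 5 in pre-cDC against GMP (2 without GMP replicate 2 or pre-cDC replicate 2). With 1 probe set per gene, the brightest over all 15 arrays, at most 7 could be called, and the counts were 4 in GMP against CMP, 3 in CDP against GMP, 5 in pre-cDC against CDP and 5 in pre-cDC against CMP. In monocytes, an added constant of 8 gave 1 probe set at least 4-fold different at 48 against 0 hours, and a 2-fold limit gave 2 at 24 hours and 1 at 48 hours, in each case lower.

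Deviations of same-numbered arrays correlated above 0.1 for 5 of 6 pairs of groups, up to 0.332 for CDP and pre-cDC, and at 0.014 for CMP and GMP. The labels do not say what the number marks and not every pair passed 0.1, so the block stayed an alternative; whether the arrays are paired is unknown. With the replicate block the member counts were 8 in GMP against CMP, 4 in CDP against CMP and 9 in pre-cDC against CDP, and 0 of the 42 calls were lost; over all probe sets GMP against CMP went from 5593 to 6744 calls.

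With 2 arrays per group, leaving 1 out leaves a lone array that is assumed to vary like the others. Values near the array medians, as for Hoxa10 and most Hoxa3 probe sets, had no detection call here, and differences between them are shrunk by the added 32.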

Other observations

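None of the 9 TALE genes, 27 other Hox genes or 15 Polycomb genes differed by 4-fold in any of the 6 culture or monocyte comparisons. Of all probe sets, 0.411% to 3.41% did, so few or none would be counted in lists of this size. Most of the other Hox genes read under the array medians there and could not be counted, so the absence does not show that these genes were stable. Of the 18 MLL complex genes Dot1l, the histone H3 methyltransferase recruited by MLL fusions, was counted in the cultures. By its brightest probe set there, another than in the progenitors, it read 281 in adherent GM-CSF cells, 30.8 in CD11c+ GM-CSF cells and 248 in M-CSF cells. Pbx3, whose bone marrow values were highest in pre-cDC, read 1235, 381 and 688 in monocytes at 0, 24 and 48 hours. Tgif1 read 501, 948 and 804 and Ezh2 4771, 1788 and 2325 at the same times. All of these are single arrays with no replicate check.

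Genes linked to HOXA9 and MEIS1 differed in both directions in monocytes from 0 to 24 hours, with 2 of 18 at least 4-fold higher and 3 lower, where 3.1% of all probe sets differed by 4-fold in either direction. The lower ones were Myb, a progenitor transcription factor (1591, 130.4 and 157 at 0, 24 and 48 hours), Mef2c (1505, 223 and 269, by another probe set than in the progenitors) and Flt3, and the higher ones were Kit and Myc (378, 1783 and 1403). In the CD11c+ GM-CSF cells against adherent GM-CSF cells 3 were higher, Flt3 (21.0 to 204), Kit (40.7 to 354) and Sox4 (253 to 1929), and 1 lower, Ccl3 (1927 to 371), where 0.411% of all probe sets differed by 4-fold. Hoxa9 1455626_at was below the median on both arrays. The shares of 3.1% and 0.411% are over all probe sets, also dim ones that could not be counted. Each listed gene was read by its brightest probe set, so the list counts and these shares are not alike.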
